A study of Mus musculus with 12 samples.

Results

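The collagen chains outside cartilage were the genes whose symbol is Col, a number, the letter a and a number, without the 7 chains of types II, IX, X and XI. The rule gave 37 genes of the 49315 in the count tables, and used no measured value. RNA-seq was performed on mouse adult fibroblasts (MAFs), taken from ears of adult mice and used as primary cultures, in 12 libraries of 4 groups with 3 replicates each. WT control and WT senescent cells came from C57BL6/J mice. KO control and KO senescent cells carried the BMAL1 -/- genotype; BMAL1 drives the positive limb of the circadian clock, and its gene is listed as Arntl in the annotation. Control cells received a sham exposure (0 Gy) and senescent cells received 20 Gy of X-rays and were kept in culture while senescence developed. Every culture, controls included, was exposed to 100 nM dexamethasone, a glucocorticoid used to synchronise clocks, and harvested 12 h afterwards, so a circadian time course and cells without the hormone are not part of these comparisons. The MAFs were low-passage cultures from female mice, and the sources used here do not say whether the 3 replicates of a group came from separate animals.

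Collagens are triple helices of α chains, which may be copies of 1 chain or products of different genes. Fibrillar chains build the load-bearing fibrils of skin and tendon, type IV forms the sheet of basement membranes, type VI forms beaded filaments around cells, and the FACITs (fibril-associated collagens with interrupted triple helices) sit on fibril surfaces. Dermal fibroblasts are a main source of types I, III, V and VI, and their output sets much of the bulk and stiffness of connective tissue.

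Total counts were 23923030 to 31736083 per library, at which 3 counts, taken as the detection floor, equalled 0.0945 to 0.125 CPM, the unit of counts scaled to library size used below. Arntl stood at 29.8 to 33.2 CPM in WT control, 35.2 to 37.4 in WT senescent, 11.8 to 15.2 in KO control and 25.3 to 27.5 in KO senescent libraries, so gene-level counts did not separate KO from WT by absence. The labelled cell type was checked with 8 fibroblast markers, whose summed level was 6276 to 6439, 5466 to 5659, 6931 to 7107 and 5809 to 5947 CPM in the same order of groups. Vimentin (Vim), Pdgfra and Thy1 were present in each group. The sums hide opposite changes. By the test described below, 5 of the 8 were higher and 3 lower after irradiation in WT cells (29.2 and 27% of all genes). In KO cells 3 were higher and 3 lower (28.5 and 28.6%). Their log2 fold changes ran from -1.18 to 3.37 in WT and from -1.13 to 3.44 in KO cells. Markers of chondrocytes (12 genes) were also high and moved with both irradiation and genotype, at 7643 to 9494, 2156 to 2497, 5068 to 6983 and 696 to 811 CPM. None of these 12 lay under the floor in every library, and the most abundant of them was Col2a1, the main chain of cartilage fibrils. Markers of keratinocytes (10.6 to 30.4 CPM), endothelium (2.12 to 8.26), macrophages (11.8 to 21.7), Schwann cells and glia (28.8 to 57.8), skeletal muscle (15.1 to 58.9) and adipocytes (31.5 to 70.7) were low, and myofibroblast and smooth muscle markers summed to 1453 to 2361 CPM. In bulk RNA, fewer cells of a type and less RNA per cell cannot be told apart, which holds for every level below.

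Compared per exon length, as CPM per kilobase of exon (RPKM), Col1a1 had the highest level in WT control cells at 1116 ± 19.1 RPKM (SD, n = 3), followed by Col6a1 at 666 ± 49.4. Col5a2 (419 ± 10.0), Col3a1 (397 ± 27.2) and Col1a2 (390 ± 9.51) came next, and neighbours in that order of 3 did not differ beyond the spread of their libraries. In WT senescent cells Col5a2 (267 ± 6.84) and Col1a1 (267 ± 4.89) had levels that overlapped, ahead of Col6a1 (217 ± 10.5). In KO senescent cells Col1a1 was again first, at 450 ± 3.34 RPKM, and Col5a2 (239 ± 9.50) and Col1a2 (238 ± 4.90) did not differ beyond their spread. The length used joins all annotated exons of a gene, 12426 bases for Col1a2 and 4380 for Col6a1, so these orders depend on the annotation. By CPM without length, Col1a2 (4849) stood above Col6a1 (2918) in WT control cells. Of the 37 chains, 15 had a mean of at least 100 CPM over the 12 libraries, and 5 (Col6a5, Col6a6, Col13a1, Col19a1 and Col26a1) were too low to be tested, with 0 to 12 counts per library.

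**Figure D1:**
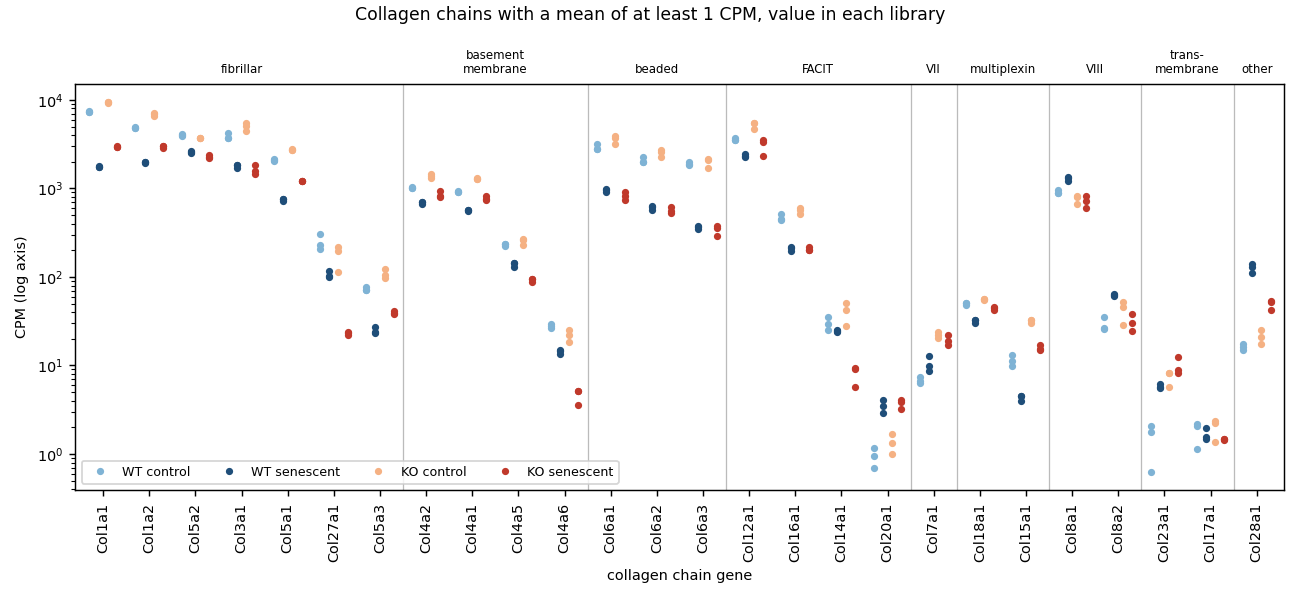
Level of each collagen chain with a mean of at least 1 CPM, in CPM on a log axis, with 1 point per library, coloured by group and arranged by structural class. The control points (pale) of Col1a1, Col1a2 and the type VI chains Col6a1, Col6a2 and Col6a3 lie well above the senescent points (dark) in both genotypes, while Col28a1 and Col20a1 show the opposite order.

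Together the 37 chains took 3.47, 3.62 and 3.39% of all gene counts in the 3 WT controls and 1.72, 1.75 and 1.80% in the WT senescent libraries. In KO cells they took 4.06, 4.46 and 4.35% in controls and 1.96, 2.06 and 1.83% in senescent cells. The share was therefore lower in each senescent library than in each control library, and higher in each KO control library than in each WT control library. Fibrillar chains held the largest portion, at 2.14 ± 0.0603% of all counts in WT control, 0.958 ± 0.0155% in WT senescent, 2.62 ± 0.0751% in KO control and 1.16 ± 0.0265% in KO senescent cells (SD, n = 3). The type VI chains went from 0.659 ± 0.0486% to 0.205 ± 0.00751% in WT and from 0.760 ± 0.0786% to 0.181 ± 0.0150% in KO cells. Type VIII chains differed from these, with 0.0895 ± 0.00609% in WT control against 0.145 ± 0.00666% in WT senescent cells, and 0.0756 ± 0.00896% against 0.0776 ± 0.0117% in KO cells. Without Col1a1, Col1a2 and Col3a1, the remaining chains took 1.96, 1.17, 2.30 and 1.17% on average in the 4 groups in that order. Shares are a description over the chosen genes and were not tested.

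**Figure D2:**
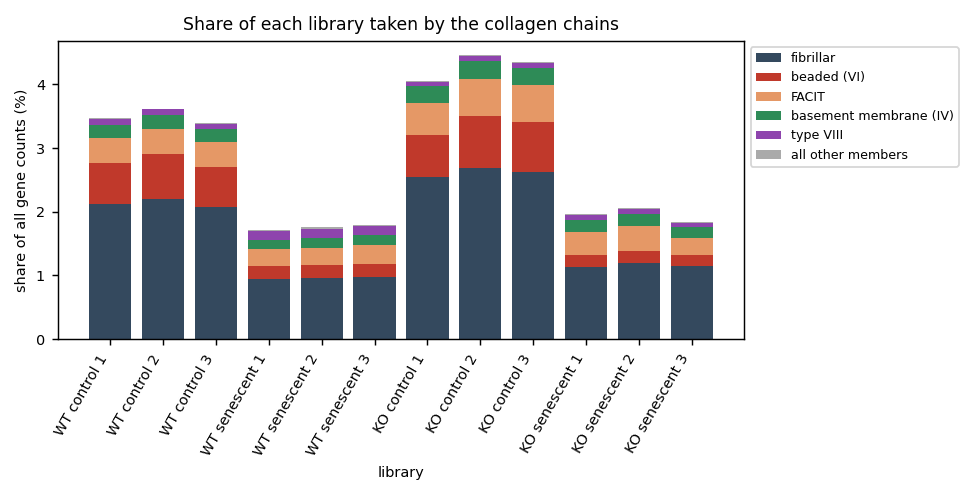
Share of all gene counts taken by the collagen chains in each of the 12 libraries, in percent, stacked by class. The control bars reach 3.39 to 4.46% and the senescent bars 1.72 to 2.06%, with fibrillar chains as the largest segment of each bar.

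To ask how the chains responded to irradiation in each genotype, senescent and control libraries were compared with edgeR's quasi-likelihood test, adjusted by the Benjamini-Hochberg method over 17416 genes. Calls required an adjusted p below 0.05 with a log2 fold change beyond 1 in size, and rose and fell are used for chains below that p. In WT cells 18 of the 32 tested chains fell and 10 rose, against 27 and 29.2% of all tested genes. Of these, 11 were called lower and 8 called higher, where 5.9 and 11.6% of all genes were. In KO cells 19 fell and 3 rose (28.6 and 28.5% of all genes), with 14 called lower and 3 called higher (7.58 and 11.2%). The median log2 fold change of the chains was -0.63 in WT and -0.71 in KO cells, beside 0.0245 and -0.0028 over all tested genes. Level and direction went together: of the 15 chains with at least 100 CPM, 14 fell in each genotype, and in WT cells the remaining one, Col8a1, rose. The 18 chains that fell in WT cells also fell in KO cells, and 11 were called lower in both genotypes. Only Col20a1, Col22a1 and Col28a1 rose in both. The shares of all genes that fell, rose or were called in both genotypes were not computed.

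**Figure D3:**
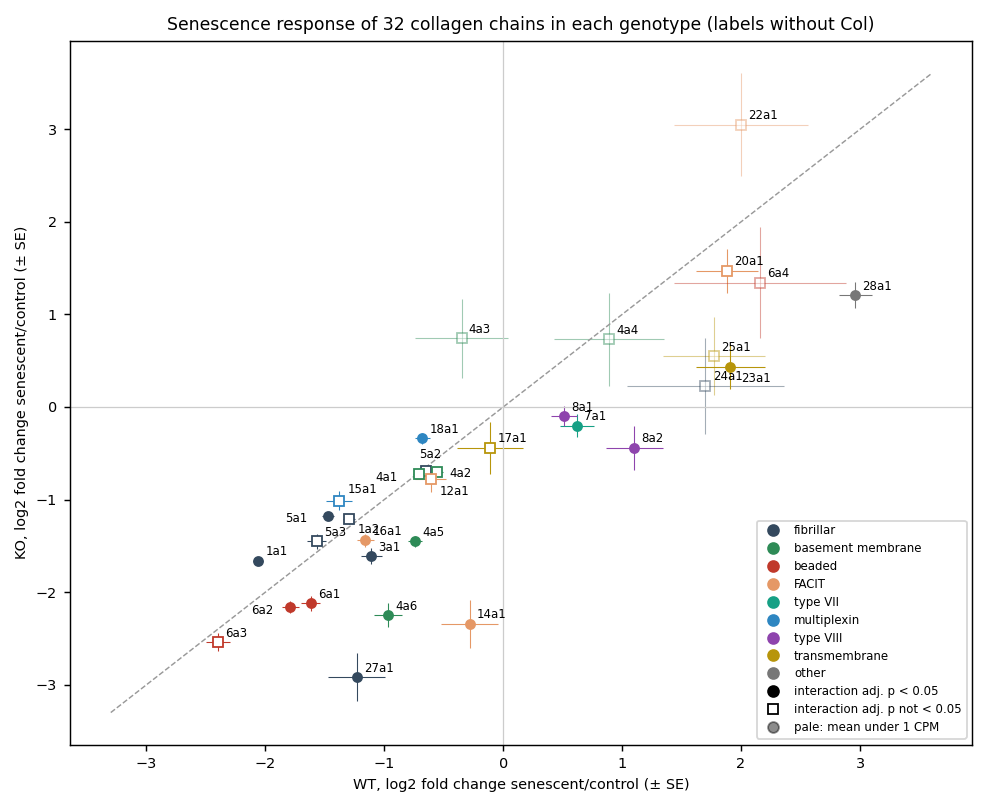
Log2 fold change of senescent against control cells in WT (horizontal) and KO (vertical) for the 32 tested chains, with bars of 1 SE, colour for class and a dashed line of equal response. Filled circles mark an interaction adjusted p under 0.05, and pale symbols mark chains with a mean under 1 CPM. Most chains lie in the lower left, and Col14a1, Col27a1 and Col4a6 lie far below the line.

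Among the fibrillar chains, 7 of 8 fell in both genotypes. Col1a1 and Col1a2, whose products form the type I heterotrimer of α1 and α2 chains, were the most counted in controls of both genotypes. Col1a1 stood at 7213, 7297 and 7459 CPM in WT controls against 1726, 1739 and 1787 after irradiation, and 9353, 9394 and 9230 CPM in KO controls against 2935, 2950 and 2979 after irradiation, in replicate order 1 to 3. Col1a2 stood at 4759, 4983 and 4805 CPM in WT controls against 1987, 1945 and 1982 after irradiation, and 6589, 7100 and 6851 CPM in KO controls against 2887, 2979 and 3002 after irradiation. The groups did not overlap for either gene, and libraries of a group lay close together. Col1a1 fell 4.18-fold in WT and 3.16-fold in KO cells, at log2 fold changes of -2.06 ± 0.04 (adjusted p = 3.02e-18) and -1.66 ± 0.04 (adjusted p = 2.76e-17) (± SE here and below, 3 libraries a group). Col1a2 fell less, by 2.46-fold (-1.30 ± 0.05 (adjusted p = 1.95e-15)) and 2.32-fold (-1.21 ± 0.05 (adjusted p = 3.63e-15)). Col1a1 fell less in KO than in WT cells, with an interaction, the KO change minus the WT change, of 0.41 ± 0.06 (adjusted p = 7.81e-05). For Col1a2 the interaction was 0.09 ± 0.06 (adjusted p = 0.364), with a 95% interval of -0.04 to 0.21.

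Col3a1 encodes the chain of type III collagen, a fine fibril of skin and vessels. Its level was 3749, 4201 and 3728 CPM in WT controls against 1701, 1834 and 1859 after irradiation, and 4417, 5437 and 5060 CPM in KO controls against 1584, 1831 and 1457 after irradiation. It fell 2.16-fold in WT cells (-1.11 ± 0.09 (adjusted p = 7.15e-08)) and 3.06-fold in KO cells (-1.61 ± 0.09 (adjusted p = 1.24e-09)), the opposite order to Col1a1, with an interaction of -0.50 ± 0.12 (adjusted p = 0.0111). Type V chains nucleate type I fibrils and limit their width. Col5a1 was counted at 2030, 2068 and 2124 CPM in WT controls against 767, 722 and 753 after irradiation, and 2797, 2732 and 2724 CPM in KO controls against 1226, 1218 and 1201 after irradiation, and Col5a2, its usual partner, at 4012, 3924 and 4117 CPM in WT controls against 2491, 2564 and 2622 after irradiation, and 3716, 3718 and 3681 CPM in KO controls against 2263, 2400 and 2228 after irradiation. Col5a1 fell to a larger extent, at -1.47 ± 0.05 (adjusted p = 3.87e-16) in WT and -1.18 ± 0.04 (adjusted p = 4.86e-15) in KO cells, than Col5a2, at -0.65 ± 0.05 (adjusted p = 9.32e-11) and -0.69 ± 0.05 (adjusted p = 3.33e-11). Col5a3, a less common type V chain, stood at 70.9, 77.0 and 70.8 CPM in WT controls against 23.2, 23.7 and 27.0 after irradiation, and 123, 96.9 and 104 CPM in KO controls against 39.0, 38.3 and 41.4 after irradiation. Its log2 fold changes were -1.57 ± 0.08 (adjusted p = 1.97e-12) in WT and -1.45 ± 0.08 (adjusted p = 3.26e-12) in KO cells, and the interaction of 0.12 ± 0.11 (adjusted p = 0.487) had a 95% interval of -0.10 to 0.34.

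Col27a1, a fibrillar chain best known from cartilage that the selection rule keeps, was at 232, 308 and 205 CPM in WT controls against 99.9, 102 and 116 after irradiation, and 115, 220 and 195 CPM in KO controls against 24.0, 23.5 and 22.3 after irradiation. It fell in WT (-1.23 ± 0.24 (adjusted p = 0.00199)) and further in KO cells (-2.92 ± 0.26 (adjusted p = 1.31e-05)). Col24a1 had few counts, 9 in all WT control and 36 in all WT senescent libraries, a ratio of 3.37 with an exact 95% interval of 1.59 to 7.95 for counting error only. Its level was 0.0402, 0.0814 and 0.271 CPM in WT controls against 0.272, 0.572 and 0.424 after irradiation, and 0.64, 0.303 and 0.429 CPM in KO controls against 0.849, 0.426 and 0.338 after irradiation. It was called higher in WT cells (1.70 ± 0.66 (adjusted p = 0.0331)), but the adjusted p reached 0.143 when WT control replicate 1 was left out, and was 0.108, 0.128 and 0.0615 without WT control replicate 2, WT senescent replicate 2 or WT senescent replicate 3. In KO cells its change was 0.23 ± 0.52 (adjusted p = 0.732).

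The letters around the starts of these genes were read from RefSeq, in windows of 300 bases (250 before and 50 after the start, GRCm38.p6), which the table held for 30 of the 37 chains in 32 windows. Col1a1, Col4a3, Col5a2, Col12a1, Col14a1, Col22a1 and Col26a1 had no window and are not covered by the search. Windows were searched on both strands for CACGTG (the E-box bound by BMAL1 with CLOCK), TGACTCA or TGAGTCA (the AP-1 element), CCAAT and TATAAA. No collagen window held CACGTG, which 7.15% of 32851 windows of all genes did. TGACTCA was in 1 (3.12%, against 5.20% of all), CCAAT in 11 (34.4%, against 37.4%) and TATAAA in 3 (9.38%, against 13.6%). A match describes letters only, and its use by a factor was not measured here. The windows of Col1a2, a type I gene, and of Col3a1, the type III gene, are shown 5′ to 3′ on the coding strand with the searched letters in capitals. That of Col1a2 holds CCAAT on both strands, and that of Col3a1 holds TATAAA.
Col1a2 (chr6:4505368-4505667, plus strand): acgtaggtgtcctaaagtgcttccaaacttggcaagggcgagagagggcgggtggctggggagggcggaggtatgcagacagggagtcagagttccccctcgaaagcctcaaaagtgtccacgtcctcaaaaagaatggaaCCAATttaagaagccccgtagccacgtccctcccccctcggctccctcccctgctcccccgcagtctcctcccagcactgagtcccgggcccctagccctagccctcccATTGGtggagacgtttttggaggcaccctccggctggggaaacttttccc
Col3a1 (chr1:45311288-45311587, plus strand): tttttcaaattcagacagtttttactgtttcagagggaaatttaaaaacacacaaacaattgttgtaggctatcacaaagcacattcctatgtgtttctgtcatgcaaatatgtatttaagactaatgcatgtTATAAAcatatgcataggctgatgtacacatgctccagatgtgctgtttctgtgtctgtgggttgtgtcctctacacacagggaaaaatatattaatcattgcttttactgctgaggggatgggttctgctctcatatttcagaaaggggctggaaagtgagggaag

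Type IV chains are encoded by 3 head-to-head gene pairs and assemble as 3 kinds of trimer. Col4a1 and Col4a2, the broadly used pair, fell together. Col4a1 was at 920, 901 and 941 CPM in WT controls against 554, 563 and 574 after irradiation, and 1307, 1273 and 1263 CPM in KO controls against 766, 816 and 747 after irradiation, and Col4a2 at 1009, 1031 and 1018 CPM in WT controls against 674, 694 and 701 after irradiation, and 1316, 1442 and 1380 CPM in KO controls against 831, 925 and 793 after irradiation. The log2 fold changes were -0.71 ± 0.05 (adjusted p = 4.59e-11) and -0.72 ± 0.05 (adjusted p = 2.86e-11) for Col4a1 in WT and KO cells, and -0.56 ± 0.05 (adjusted p = 1.64e-08) and -0.70 ± 0.05 (adjusted p = 5.35e-10) for Col4a2. No value of either gene exceeded 1 in size, and the interaction of Col4a1 was -0.01 ± 0.07 (adjusted p = 0.907), with a 95% interval of -0.14 to 0.11. The starts of Col4a1 and Col4a2 lie 21 bases apart on opposite strands, so 1 window, printed on the Col4a1 strand, covers the start of both. Its capitals mark CCAAT read on the other strand. The CCAAT counted for Col4a2 is a different site, in that gene's own window and outside the printed letters.
Col4a1 (chr8:11312777-11313076, minus strand): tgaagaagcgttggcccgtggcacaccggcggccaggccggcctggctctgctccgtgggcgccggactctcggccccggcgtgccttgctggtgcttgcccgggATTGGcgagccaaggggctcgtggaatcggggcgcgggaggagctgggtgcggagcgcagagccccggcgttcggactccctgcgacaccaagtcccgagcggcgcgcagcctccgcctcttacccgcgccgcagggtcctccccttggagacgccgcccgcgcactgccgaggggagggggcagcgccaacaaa

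Col4a5 and Col4a6, neighbours on the X chromosome with 1309 bases between them, fell further in KO cells. Col4a5 was at 224, 233 and 234 CPM in WT controls against 128, 143 and 142 after irradiation, and 228, 269 and 261 CPM in KO controls against 95.6, 95.2 and 87.1 after irradiation, and Col4a6 at 29.4, 26.5 and 27.9 CPM in WT controls against 13.4, 14.4 and 14.9 after irradiation, and 18.4, 25.4 and 21.9 CPM in KO controls against 5.21, 5.11 and 3.55 after irradiation. In WT cells Col4a5 fell by 1.67-fold (-0.74 ± 0.06 (adjusted p = 2.02e-09)) and Col4a6 by 1.96-fold (-0.97 ± 0.12 (adjusted p = 6.65e-07)). In KO cells the falls were 2.73-fold (-1.45 ± 0.06 (adjusted p = 5.18e-14)) and 4.77-fold (-2.25 ± 0.13 (adjusted p = 1.76e-11)). The interactions were -0.71 ± 0.09 (adjusted p = 2.32e-05) and -1.28 ± 0.18 (adjusted p = 7.25e-05). The last pair, Col4a3 and Col4a4 (72 bases apart), which kidney glomeruli use, was near the floor at 0.343 to 1.30 and 0.181 to 1.01 CPM over the 12 libraries. Neither passed the test in any of the 5 comparisons. Col4a3 shares 5.65% of its exon bases with a gene on the opposite strand.

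Col6a3 had the largest fall of any chain in WT cells. The 3 genes encode the subunits of the common beaded filament. Col6a1 was counted at 2787, 3168 and 2800 CPM in WT controls against 904, 954 and 995 after irradiation, and 3165, 3880 and 3707 CPM in KO controls against 821, 902 and 746 after irradiation. Col6a2 was at 1997, 2260 and 2013 CPM in WT controls against 573, 616 and 627 after irradiation, and 2263, 2728 and 2602 CPM in KO controls against 552, 610 and 533 after irradiation, and Col6a3 at 1850, 1989 and 1903 CPM in WT controls against 364, 346 and 380 after irradiation, and 1722, 2145 and 2092 CPM in KO controls against 372, 360 and 293 after irradiation. Control and senescent libraries were far apart for each of the 3 genes, and KO control replicate 1 was the lowest KO control library for each. Col6a3 fell 5.27-fold in WT (-2.40 ± 0.10 (adjusted p = 3.78e-11)) and 5.81-fold in KO cells (-2.54 ± 0.10 (adjusted p = 1.88e-11)). Col6a1 fell 3.07-fold and 4.35-fold, and Col6a2 3.45-fold and 4.48-fold, in WT and KO cells. Both fell further in KO cells, with interactions of -0.51 ± 0.11 (adjusted p = 0.0055) for Col6a1 and -0.37 ± 0.10 (adjusted p = 0.011) for Col6a2, whereas for Col6a3 the interaction was -0.14 ± 0.13 (adjusted p = 0.479). The log2 fold changes behind these folds were -1.62 ± 0.08 (adjusted p = 1.09e-10) and -2.12 ± 0.08 (adjusted p = 4.23e-12) for Col6a1 and -1.79 ± 0.07 (adjusted p = 1.38e-13) and -2.16 ± 0.07 (adjusted p = 8.75e-15) for Col6a2. Col6a1 had the one window of the set with the AP-1 letters, marked in capitals.
Col6a1 (chr10:76725995-76726294, minus strand): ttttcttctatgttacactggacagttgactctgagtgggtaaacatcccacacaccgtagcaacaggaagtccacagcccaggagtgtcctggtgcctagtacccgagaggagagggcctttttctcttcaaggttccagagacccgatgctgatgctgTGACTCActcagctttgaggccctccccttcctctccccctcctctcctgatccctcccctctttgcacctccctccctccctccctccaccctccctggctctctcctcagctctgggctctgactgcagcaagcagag

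The other type VI chains were close to the floor. Col6a4 was at 0.0804, 0.122 and 0.0 CPM in WT controls against 0.306, 0.404 and 0.27 after irradiation, and 0.2, 0.135 and 0.129 CPM in KO controls against 0.579, 0.248 and 0.371 after irradiation. Its counts summed to 5 in WT control and 28 in WT senescent libraries, a ratio of 4.72 (exact 95% interval 1.80 to 15.6, counting error only), and it was called higher in WT cells at 2.16 ± 0.72 (adjusted p = 0.0147). The call was lost without WT control replicate 3 (adjusted p = 0.0605) or WT senescent replicate 2 (adjusted p = 0.0535). In KO cells the change was 1.34 ± 0.60 (adjusted p = 0.0631). Exons of Col6a4 overlap other genes over 3.39% of their bases, and the use of strand in counting is not stated, so its reads are uncertain to that extent. Over the whole set, 11 chains had such overlaps, of 0.174 to 5.65% of exon bases.

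The FACIT chains did not move as a block. Col12a1, a fibril-bridging chain of dense connective tissue, was among the most counted chains. Its level was 3545, 3512 and 3706 CPM in WT controls against 2323, 2287 and 2459 after irradiation, and 4680, 5509 and 5502 CPM in KO controls against 3303, 3494 and 2310 after irradiation. It fell in WT (-0.61 ± 0.13 (adjusted p = 0.00347)) and KO cells (-0.78 ± 0.14 (adjusted p = 0.000672)), and KO senescent replicate 3 was well under its partners. KO senescent less WT senescent cells, Col12a1 was at 0.37 ± 0.13 (adjusted p = 0.0824) and did not pass. The difference passed without KO senescent replicate 3 (0.53, adjusted p = 3.4e-06) and with DESeq2 (0.39, adjusted p = 0.0199). Col16a1, found at fibrils and at the dermal-epidermal junction, was at 440, 509 and 450 CPM in WT controls against 213, 196 and 218 after irradiation, and 519, 603 and 563 CPM in KO controls against 203, 201 and 219 after irradiation. It fell 2.23-fold in WT (-1.16 ± 0.07 (adjusted p = 3.29e-12)) and 2.71-fold in KO cells (-1.44 ± 0.07 (adjusted p = 9.43e-14)). The interaction of Col16a1 was -0.28 ± 0.09 (adjusted p = 0.0332), and its adjusted p rose to as much as 0.108 when single libraries were left out.

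Col14a1, a FACIT that regulates fibril assembly, was at 29.2, 35.7 and 25.1 CPM in WT controls against 24.1, 25.3 and 24.8 after irradiation, and 27.8, 50.9 and 42.6 CPM in KO controls against 9.19, 9.26 and 5.67 after irradiation. WT libraries overlapped between conditions (-0.28 ± 0.24 (adjusted p = 0.356)), whereas in KO cells each senescent library was under each control library and the gene fell 5.06-fold (-2.34 ± 0.26 (adjusted p = 4.83e-05)). Col20a1 and Col22a1 moved the other way. Col20a1 was at 1.17, 0.692 and 0.948 CPM in WT controls against 2.89, 4.04 and 3.47 after irradiation, and 1.32, 1.68 and 0.987 CPM in KO controls against 3.82, 3.23 and 4.12 after irradiation, and rose by 3.69-fold in WT (1.88 ± 0.26 (adjusted p = 2.17e-06)) and 2.77-fold in KO cells (1.47 ± 0.24 (adjusted p = 2.41e-05)). Col22a1, a chain of tissue junctions, was at 0.201, 0.0814 and 0.135 CPM in WT controls against 0.578, 0.673 and 0.463 after irradiation, and 0.2, 0.0673 and 0.0429 CPM in KO controls against 0.579, 0.78 and 1.28 after irradiation. It rose in WT (2.00 ± 0.56 (adjusted p = 0.00476)) and KO cells (3.05 ± 0.56 (adjusted p = 8.65e-05)), from 10 to 49 summed counts in WT (ratio 4.13, 95% interval 2.06 to 9.14) and from 8 to 75 in KO cells (ratio 8.74, 95% interval 4.21 to 21.0).

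Type VII collagen anchors basement membranes to the dermis, and types XV and XVIII, the multiplexins, are basement membrane proteoglycans. Col7a1 was at 6.39, 6.6 and 7.36 CPM in WT controls against 9.9, 8.75 and 12.7 after irradiation, and 24.1, 20.5 and 22.0 CPM in KO controls against 18.7, 16.9 and 22.3 after irradiation. It rose in WT cells (0.62 ± 0.14 (adjusted p = 0.000641)) and was at -0.20 ± 0.12 (adjusted p = 0.159) in KO cells, with an interaction of -0.82 ± 0.18 (adjusted p = 0.00312). Col15a1 was at 9.81, 13.1 and 11.2 CPM in WT controls against 4.49, 4.55 and 4.01 after irradiation, and 32.2, 30.0 and 32.8 CPM in KO controls against 14.9, 15.2 and 16.8 after irradiation. It fell in WT (-1.38 ± 0.11 (adjusted p = 1.41e-09)) and in KO cells (-1.01 ± 0.10 (adjusted p = 9.23e-09)), where the log2 fold change lay at the threshold and came to -0.97 without KO senescent replicate 1 and -0.99 without KO control replicate 3, and it also missed that threshold without KO senescent replicate 2. Col18a1, the source of endostatin, had means of 50.5 ± 1.46 CPM in WT control, 31.6 ± 1.19 in WT senescent, 55.7 ± 0.848 in KO control and 43.9 ± 1.55 in KO senescent cells (SD). It fell at -0.68 ± 0.06 (adjusted p = 2.42e-09) in WT and -0.34 ± 0.06 (adjusted p = 2.41e-05) in KO cells, less in the latter (0.33 ± 0.08 (adjusted p = 0.00546)).

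Type VIII chains form hexagonal networks in vessel walls and under the corneal endothelium, and both rose in WT cells. Col8a1 was at 883, 964 and 885 CPM in WT controls against 1226, 1347 and 1320 after irradiation, and 669, 831 and 790 CPM in KO controls against 719, 820 and 601 after irradiation. It rose 1.42-fold in WT cells (0.51 ± 0.11 (adjusted p = 0.00129)) and differed by -0.10 ± 0.11 (adjusted p = 0.453) between KO senescent and KO control cells, where libraries overlapped. Col8a2 was at 26.8, 35.4 and 25.5 CPM in WT controls against 62.4, 64.0 and 61.4 after irradiation, and 28.4, 51.6 and 45.2 CPM in KO controls against 29.8, 37.8 and 24.6 after irradiation. It rose 2.14-fold in WT cells (1.10 ± 0.24 (adjusted p = 0.00364)), and in KO cells the difference was -0.44 ± 0.24 (adjusted p = 0.145), again with overlapping libraries. Col28a1, a von Willebrand domain collagen linked to peripheral nerve, showed the largest rise of the set in WT cells. Its level was 14.8, 17.5 and 16.3 CPM in WT controls against 111, 129 and 139 after irradiation, and 17.6, 25.1 and 21.2 CPM in KO controls against 53.3, 52.2 and 42.3 after irradiation, which gave a 7.79-fold rise in WT (2.96 ± 0.14 (adjusted p = 3.75e-09)) and a 2.31-fold rise in KO cells (1.21 ± 0.14 (adjusted p = 1.1e-05)). The Schwann and glial markers summed to 54.5 to 57.8 CPM in WT control, 42.4 to 44.0 in WT senescent, 37.1 to 37.7 in KO control and 28.8 to 31.6 in KO senescent libraries. Among these markers, Ngfr and Sox10 were called higher in both genotypes, at mean levels of 0.692 and 0.0556 CPM in WT control, 3.55 and 0.348 in WT senescent, 0.377 and 0.0358 in KO control and 4.49 and 0.771 in KO senescent cells (Sox10 averaged under the floor in controls), while Mbp was called lower in both, and S100b did not pass in either. The part of the source of these markers in the change of Col28a1 was not tested.

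Transmembrane collagens are single-pass surface proteins that can be shed. Col23a1 was at 2.09, 1.79 and 0.632 CPM in WT controls against 5.51, 5.66 and 6.1 after irradiation, and 5.72, 8.15 and 8.11 CPM in KO controls against 8.84, 12.6 and 8.27 after irradiation. It rose 3.76-fold in WT cells (1.91 ± 0.29 (adjusted p = 5e-05)), and in KO cells, which were already higher without irradiation, the change was 0.43 ± 0.24 (adjusted p = 0.138). Col25a1 was at 0.362, 0.285 and 0.271 CPM in WT controls against 0.68, 1.52 and 0.965 after irradiation, and 0.6, 0.404 and 0.301 CPM in KO controls against 0.463, 0.709 and 0.743 after irradiation. It was called higher in WT cells (1.77 ± 0.43 (adjusted p = 0.00148)), from 22 to 90 summed counts (ratio 3.45, 95% interval 2.14 to 5.77), and stood at 0.55 ± 0.42 (adjusted p = 0.277) in KO cells. Col17a1, a hemidesmosome protein of keratinocytes, ranged from 1.13 to 2.36 CPM and passed the test in none of the 5 comparisons. The 5 untested chains had group means between 0 and 0.248 CPM, and a count of 0 in a library allows up to 0.0945 to 0.125 CPM.

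The senescence responses of the 2 genotypes were then compared directly. The interaction passed the test for 13 chains in the lower direction and 3 in the higher direction, against 11.7 and 9.24% of all tested genes. Of these, 6 were called lower and 0 called higher, where 2.51 and 1.15% of all genes were. By edgeR's unadjusted p under 0.05 there were 4 chains in the higher direction, and DESeq2 called 0 higher. The median interaction over the 32 chains was -0.35, beside -0.0258 over all genes. The 6 were Col14a1 (-2.06 ± 0.36 (adjusted p = 0.00402)), Col28a1 (-1.76 ± 0.19 (adjusted p = 0.000129)), Col27a1 (-1.70 ± 0.35 (adjusted p = 0.00968)), Col8a2 (-1.54 ± 0.34 (adjusted p = 0.0125)), Col23a1 (-1.48 ± 0.38 (adjusted p = 0.0125)) and Col4a6 (-1.28 ± 0.18 (adjusted p = 7.25e-05)). Col14a1, Col27a1 and Col4a6 fell further in KO cells, while Col28a1, Col8a2 and Col23a1 rose in WT cells and rose less, or did not pass, in KO cells. When the test asked for a log2 difference beyond 0.5, the adjusted p was 0.0901 for Col27a1, 0.121 for Col8a2 and 0.139 for Col23a1, so those 3 did not pass. The 3 chains with a smaller fall in KO cells were Col1a1 (0.41), Col18a1 (0.33) and Col5a1 (0.29).

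In WT cells Col28a1, Col8a2 and Col23a1 rose, whereas Col27a1 and Col4a6 fell, Col14a1 did not pass, and the chondrocyte marker sum was lower. The 6 chains were chosen by a called interaction, lower for each, so that direction was fixed by the choice. In senescent cells, the 5 chains called lower in KO than in WT were all among these 6, while Col23a1 was higher. The chondrocyte markers were called lower there for all 11 tested, where 2.19% of all genes were. All 11 that could be tested had a lower interaction, 9 of them called, where 11.7% of all genes passed lower and 2.51% were called lower, and the marker sum by replicate was 7974, 9494 and 7643 CPM in WT controls against 2156, 2283 and 2497 after irradiation, and 5068, 6983 and 6411 CPM in KO controls against 780, 811 and 696 after irradiation. Within the WT controls replicate 2 had the highest marker sum and the highest Col27a1, Col14a1, Col8a2 and Col28a1 but the lowest Col4a6. Within the KO controls replicate 1 had the lowest marker sum and the lowest level of those 5 chains and of Col23a1, whose highest WT control was replicate 1. The part of the markers' source in the changes of these 6 chains was not tested. Col3a1, Col1a2, Col6a1, Col6a2 and Col6a3 had the same highest WT control and lowest KO control library, while Col1a1 and Col5a1 did not, and Col1a1 varied from 9230 to 9394 CPM over the KO controls.

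**Figure D4:**
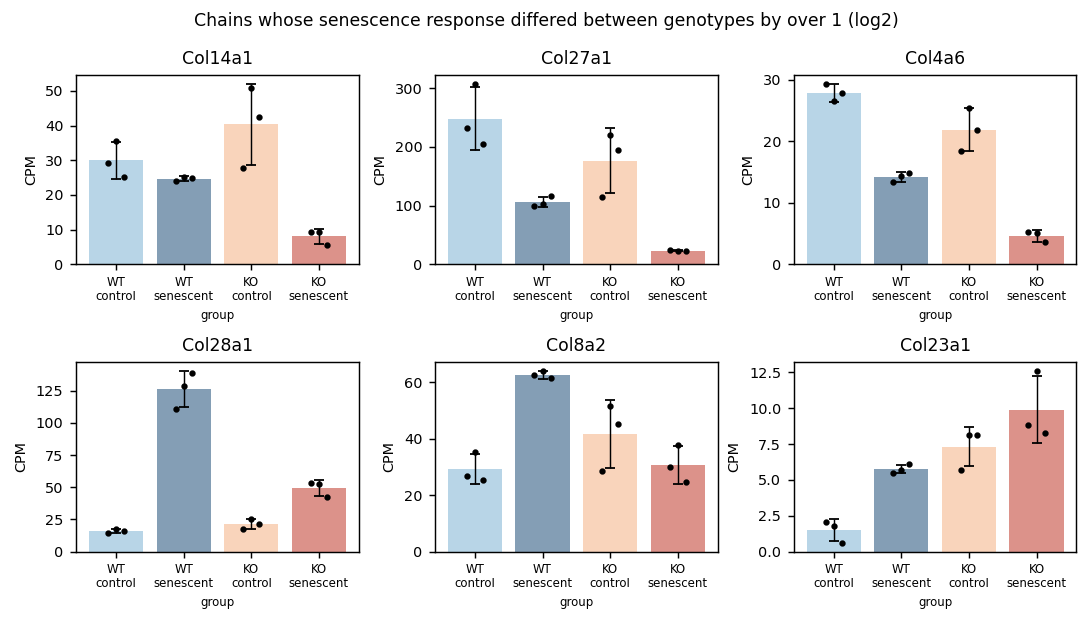
Level of the 6 chains with a called interaction, in CPM on linear axes that start at 0, with bars for group means, error bars of 1 SD and points for the 3 libraries. Col14a1, Col27a1 and Col4a6 are lowest in KO senescent cells, Col28a1 and Col8a2 are highest in WT senescent cells, and Col23a1 is lowest in WT control cells.

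The genotypes were compared within each condition to ask how collagen levels differed between KO and WT cells. Each count table held 1 genotype, and KO and WT cells came from different mice. A difference between KO and WT therefore cannot be told apart from a difference in animals, cultures or handling of the tables. The interaction shares this limit. In control cells 14 of 32 chains were higher in KO than in WT and 0 were lower at edgeR's adjusted p, against 8.07 and 4.96% of all tested genes. With edgeR's unadjusted p under 0.05 there were 4 lower, and DESeq2 found 3 lower at its adjusted p. Called chains numbered 3 higher and 0 lower (1.36 and 1.18% of all genes), and DESeq2 also called 3 higher and 0 lower. The median difference was 0.38 over the chains and 0.0056 over all genes. The called chains were Col23a1, 4.8-fold higher in KO controls (2.26 ± 0.29 (adjusted p = 9.23e-05)), Col7a1, 3.27-fold higher (1.71 ± 0.13 (adjusted p = 1.75e-08)), and Col15a1, 2.79-fold higher (1.48 ± 0.10 (adjusted p = 1.43e-09)). Smaller differences were seen for Col5a3 (0.56 ± 0.08 (adjusted p = 3.08e-05)), Col1a2 (0.50 ± 0.04 (adjusted p = 9.49e-08)), Col4a1 (0.48 ± 0.05 (adjusted p = 3.55e-07)), Col4a2 (0.44 ± 0.05 (adjusted p = 9.32e-06)), Col5a1 (0.41 ± 0.04 (adjusted p = 1.44e-06)) and Col1a1 (0.35 ± 0.04 (adjusted p = 4.68e-06)).

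At log2 fold changes close to those with all libraries, some of the control differences missed the threshold when any 1 of several control libraries was left out. Those of Col12a1 (0.54 ± 0.13 (adjusted p = 0.0275)), Col3a1 (0.35 ± 0.09 (adjusted p = 0.0162)), Col6a1 (0.30 ± 0.08 (adjusted p = 0.0236)) and Col6a2 (0.28 ± 0.07 (adjusted p = 0.0123)) reached adjusted p-values of 0.0996, 0.0698, 0.0985 and 0.071 when 1 library was left out. Col16a1 was 1.21-fold higher in KO controls (0.27 ± 0.06 (adjusted p = 0.00713)), with adjusted p-values of 0.0601 without WT control replicate 1 and 0.0574 without KO control replicate 2, and the remaining type VI chain of high level, Col6a3, differed by 0.05 ± 0.09 (adjusted p = 0.771).

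In senescent cells 10 chains were higher and 8 lower in KO than in WT, against 11.9 and 11.8% of all genes, with 1 called higher and 5 called lower (1.29 and 2.19%). Col15a1 was 3.59-fold higher (1.84 ± 0.11 (adjusted p = 3.52e-10)). The called lower chains were Col27a1, 4.55-fold (-2.19 ± 0.26 (adjusted p = 0.000395)), Col14a1, 3.09-fold (-1.63 ± 0.27 (adjusted p = 0.00222)), Col4a6, 3.09-fold (-1.63 ± 0.14 (adjusted p = 6.25e-08)), Col28a1, 2.56-fold (-1.36 ± 0.13 (adjusted p = 1.42e-05)), and Col8a2, 2.04-fold (-1.03 ± 0.23 (adjusted p = 0.0129)). Without KO senescent replicate 3 the difference of Col8a2 was -0.88 and no longer passed (adjusted p = 0.0543). The median over the chains was -0.05, beside -0.0169 over all genes. Both type I chains and the type V chains Col5a1 and Col5a3 were higher in KO senescent cells, with Col1a1 1.69-fold (0.76 ± 0.04 (adjusted p = 1.11e-10)), Col5a1 1.63-fold (0.70 ± 0.04 (adjusted p = 8.13e-10)) and Col1a2 1.5-fold (0.58 ± 0.04 (adjusted p = 8.81e-09)) above WT. The type V chain Col5a2 was lower (-0.16 ± 0.05 (adjusted p = 0.0149)), at up to an adjusted p of 0.091 when WT senescent replicate 2 or 3 or KO senescent replicate 3 was left out. Col8a1 was lower (-0.86 ± 0.11 (adjusted p = 0.000104)), as was Col4a5 (-0.57 ± 0.06 (adjusted p = 1.34e-06)). Despite lower interactions, Col6a1 (-0.21 ± 0.08 (adjusted p = 0.0755)), Col6a2 (-0.1 ± 0.07 (adjusted p = 0.341)), Col3a1 (-0.15 ± 0.09 (adjusted p = 0.259)) and Col16a1 (-0.01 ± 0.06 (adjusted p = 0.923)) did not pass here with all libraries. Col6a1 and Col3a1 passed in some refits, among them without KO senescent replicate 2 (adjusted p = 0.0195 and 0.0342). Over both conditions, 9 chains were higher in KO cells each time, namely Col1a1, Col1a2, Col4a1, Col4a2, Col5a1, Col5a3, Col7a1, Col15a1 and Col23a1. Taken singly, 8.07% of all genes were higher in control and 11.9% in senescent cells, and the share higher in both was not computed. The senescent difference of Col23a1 (adjusted p = 0.029) was lost at 0.0936, 0.0963, 0.0735 and 0.11 without WT senescent replicate 1, 2 or 3 or KO senescent replicate 2. The comparisons within a genotype and between genotypes share libraries and are not independent of each other.

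Chains that share a trimer, fibril or locus were next compared as a log2 ratio of their counts within each library, which does not depend on library scaling. An exact two-sided permutation test over the libraries, 400 arrangements with a smallest possible p of 0.005, was applied to 8 pairs and 2 contrasts, and p-values were adjusted over the 16 tests. The Col1a1/Col1a2 ratio was 0.60, 0.55 and 0.63 in WT controls against -0.20, -0.16 and -0.15 after irradiation, and 0.51, 0.40 and 0.43 in KO controls against 0.02, -0.01 and -0.01 after irradiation. It fell by 0.61 with irradiation over both genotypes (exact permutation adjusted p = 0.016), by 0.77 in WT and 0.45 in KO cells. As linear count ratios these are 1.51, 0.888, 1.36 and 1.00 Col1a1 counts per Col1a2 count in WT controls, irradiated WT cells, KO controls and irradiated KO cells. Over both conditions the difference between genotypes was 0.01 (exact permutation adjusted p = 0.84), which averages a KO ratio 0.15 below WT in controls and 0.17 above WT in senescent cells, with no overlap of the genotypes in either condition.

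The Col5a1/Col5a2 ratio was -0.98, -0.92 and -0.95 in WT controls against -1.70, -1.83 and -1.80 after irradiation, and -0.41, -0.44 and -0.43 in KO controls against -0.88, -0.98 and -0.89 after irradiation. It fell by 0.66 with irradiation and was 0.69 higher in KO cells, each with an exact permutation adjusted p of 0.016. The Col4a5/Col4a6 ratio was 2.93, 3.14 and 3.07 in WT controls against 3.25, 3.30 and 3.26 after irradiation, and 3.64, 3.40 and 3.57 in KO controls against 4.19, 4.22 and 4.61 after irradiation. It rose by 0.52 with irradiation and was 0.78 higher in KO than in WT cells (exact permutation adjusted p = 0.016 for both), which leaves least Col4a6 relative to Col4a5 in KO senescent cells. The Col6a1/Col6a2 ratio rose by 0.11 with irradiation (exact permutation adjusted p = 0.04), a shift that missed the threshold, at up to 0.0571, when KO control replicate 1, or replicate 1 or 2 of the irradiated KO cells, was left out.

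For Col3a1/Col1a1 the WT ratio was 0.95 higher in senescent cells and the KO ratio 0.04 higher. The means were -0.91 ± 0.11 in WT controls, 0.04 ± 0.05 in WT senescent cells, -0.91 ± 0.15 in KO controls and -0.87 ± 0.17 in KO senescent cells (SD, n = 3), so WT senescent cells stood apart from the other groups. Over both genotypes the irradiation shift was 0.50 (exact permutation adjusted p = 0.08), which was 0.0444 without KO control replicate 2, and the genotype shift was -0.45 (exact permutation adjusted p = 0.0945), which was 0.048 without the same library. The ratios Col4a1/Col4a2, Col4a3/Col4a4 and Col8a1/Col8a2 did not pass in either contrast with all libraries. The genotype shift of Col4a1/Col4a2 (0.10, exact permutation adjusted p = 0.0571) passed without WT control replicate 3 (0.0457) or KO control replicate 2 (0.0343), and its irradiation shift (-0.08, exact permutation adjusted p = 0.0945) without KO control replicate 2 (0.0444). Its ratio stayed between -0.30 and -0.01 over all 12 libraries.

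**Figure D5:**
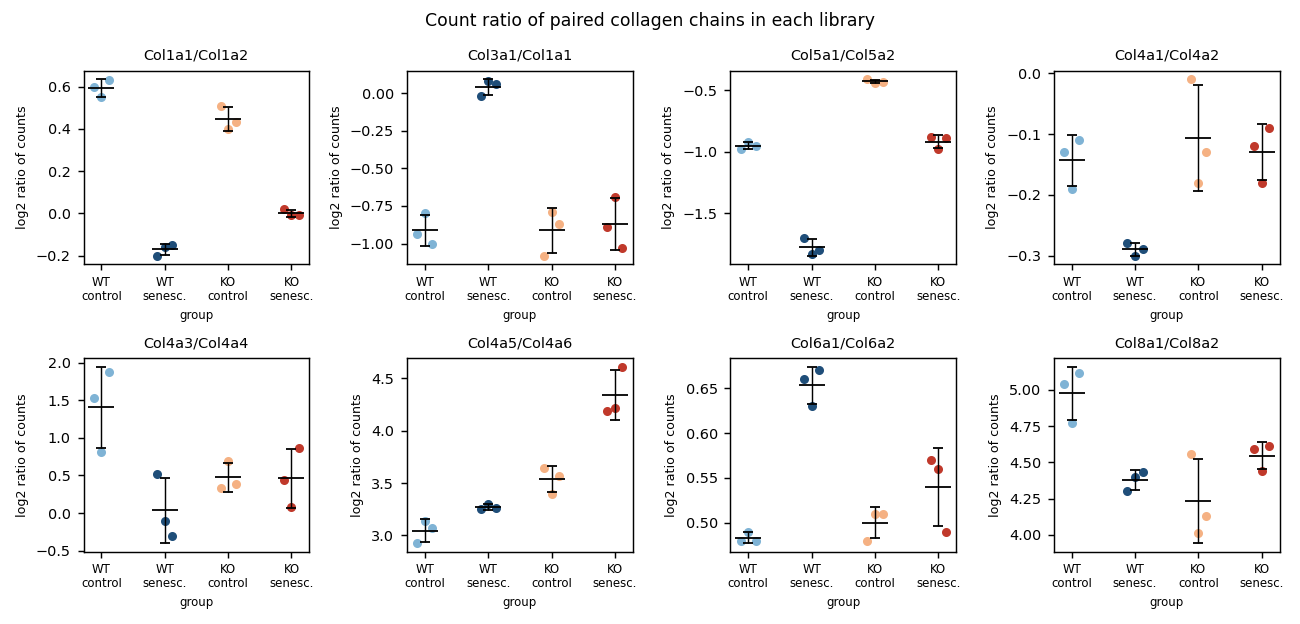
Log2 ratio of the counts of 8 pairs of chains in each library, by group, with lines for the group mean and 1 SD and an axis of its own for each pair. Col1a1/Col1a2 and Col5a1/Col5a2 are lower in senescent than in control cells of both genotypes, Col4a5/Col4a6 is highest in KO senescent cells, and Col3a1/Col1a1 is near 0 in WT senescent cells.

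Genes that make, move and remove collagen were read from the same test, beside the shares of all genes that rose (29.2% in WT and 28.5% in KO cells) and fell (27 and 28.6%), were called higher (11.6 and 11.2%) or were called lower (5.9 and 7.58%). Of 21 genes of collagen folding and modification, 16 fell and 1 rose in WT, and 17 fell and 2 rose in KO cells, with 7 and 6 called lower. P4hb, the disulfide isomerase subunit of prolyl 4-hydroxylase, went from 2188 ± 45.4 to 844 ± 2.58 CPM (SD) in WT (-1.37 ± 0.05 (adjusted p = 8.88e-16)) and from 2242 ± 41.8 to 868 ± 27.9 CPM in KO cells (-1.37 ± 0.05 (adjusted p = 6.67e-16)). P4ha2, a catalytic subunit of that enzyme, fell at -1.37 ± 0.05 (adjusted p = 1.05e-14) and -1.58 ± 0.05 (adjusted p = 1e-15), and P3h1, a prolyl 3-hydroxylase, at -1.27 ± 0.05 (adjusted p = 3.73e-14) in WT cells. Plod1, a lysyl hydroxylase, fell at -1.55 ± 0.06 (adjusted p = 8.76e-15) in KO cells. The list's median log2 fold change was -0.59 in WT and -0.65 in KO cells. The interaction passed higher for 3 and lower for 3 of its 21 genes, where 9.24 and 11.7% of all genes did. Of 13 genes of procollagen export and propeptide removal, 11 could be tested, of which 6 fell and 1 rose in WT and 7 fell and 1 rose in KO cells. The one called in either genotype was Ctsl, the lysosomal protease cathepsin L, which rose (1.16 ± 0.06 (adjusted p = 1.07e-12) in WT, 1.04 ± 0.06 (adjusted p = 4.75e-12) in KO).

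Among 9 genes of collagen degradation, 6 rose and 2 fell in WT and 5 rose and 2 fell in KO cells, where 29.2 and 27% of all genes did in WT and 28.5 and 28.6% in KO cells. Mmp3, the matrix protease stromelysin 1, rose from 34.8 ± 4.73 to 110 ± 3.68 CPM in WT (1.66 ± 0.07 (adjusted p = 8.33e-14)) and from 44.1 ± 2.85 to 190 ± 3.55 CPM in KO cells (2.11 ± 0.07 (adjusted p = 1.47e-15)). Of 8 collagen receptors, 4 rose and 4 fell in WT and 4 rose and 3 fell in KO cells. Itga11, the integrin subunit that binds fibrillar collagen on fibroblasts, rose at 1.38 ± 0.10 (adjusted p = 8.3e-09) in WT cells, while Itga2 fell at -1.66 ± 0.14 (adjusted p = 1.34e-09) in WT cells. Itga10, a receptor subunit of chondrocytes, fell at -1.02 ± 0.13 (adjusted p = 6.04e-07) and -1.34 ± 0.13 (adjusted p = 1.23e-08). Of 17 basement membrane partners, 8 fell and 5 rose in WT and 10 fell and 5 rose in KO cells, against 27 and 29.2% of all genes in WT and 28.6 and 28.5% in KO cells. Nid2, a nidogen that links laminin to type IV collagen, fell at -1.57 ± 0.17 (adjusted p = 3.91e-05) and -2.36 ± 0.18 (adjusted p = 2.97e-06), and Pxdn, the peroxidase that crosslinks type IV collagen, fell at -1.45 ± 0.06 (adjusted p = 6.99e-15) and -1.86 ± 0.06 (adjusted p = 1.7e-16). Lamb3, a laminin chain, fell at -1.57 ± 0.12 (adjusted p = 9.43e-10) and -1.08 ± 0.13 (adjusted p = 5.49e-07). The 7 cartilage chains left out of the set summed to 7013 to 8798 CPM in WT control, 2187 to 2555 in WT senescent, 4224 to 6228 in KO control and 733 to 885 in KO senescent libraries, and 6 of them were called lower in each genotype. The median over these 7 was -1.85 in WT and -2.76 in KO cells (log2 fold change), and 4 had a called, lower interaction, where 2.51% of all genes did.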

How the data were processed

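The values were raw counts per gene and library. The authors prepared libraries from poly(A) RNA, sequenced paired reads, and, per the labels, used bcl2fastq 2.17, Trimmomatic 0.36 and STAR 2.5.2b with GRCm38. They then counted uniquely mapped reads over exons with featureCounts and deposited these counts as 2 tables, 1 per genotype. The use of strand and the annotation release are not given in the sources used here. Reads carried no molecular identifiers, so counting intervals and floors cover counting error only. Total counts of 23923030 to 31736083 per library limit chains near the floor of 3 counts.

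Of 49315 gene identifiers, 48970 were matched to a symbol (GENCODE, GRCm38), and groups were taken from the sample labels. In R 4.3.3 with edgeR 4.0.16, filterByExpr over the 4 groups kept 17416 genes. TMM factors and a robust quasi-likelihood fit used all 12 libraries with 1 mean per group and no covariate. CPM were computed on TMM-scaled totals, and RPKM per union exon length. p-values were adjusted by the Benjamini-Hochberg method, and called means adjusted p under 0.05 and absolute log2 fold change over 1, the thresholds the study's methods state. Each SE was the size of the log2 fold change over the square root of F, and 95% intervals of log2 fold changes were taken from it. Since the labels name no separate cultures or animals, p-values measure only the spread between these libraries. No libraries of a group agreed within sampling noise. Alternatives were DESeq2 1.42.0, its size factors, other filters, TMM without the collagens, a minimum log2 fold change, no fold threshold, only the compared libraries, replicate blocks and leaving out each library.

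Chains called in at least 1 comparison, or with at least 100 CPM on average, are given in every library, and the others by means or ranges. From each gene list, at most the 3 called genes with the largest change and at least 5 CPM were named for WT, KO and the interaction. The members and lists were chosen with earlier results of these data known.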

Additional observations from a re-analysis of the deposited data

Results flagged for a closer look

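For 16 chains the senescence response differed between genotypes by the test of the interaction (edgeR adjusted p under 0.05), given here as the KO log2 fold change minus the WT one. The response was lower in KO cells for 13 of them: Col14a1 (-2.06), Col28a1 (-1.76), Col27a1 (-1.70), Col8a2 (-1.54), Col23a1 (-1.48), Col4a6 (-1.28), Col7a1 (-0.82), Col4a5 (-0.71), Col8a1 (-0.61), Col6a1 (-0.51), Col3a1 (-0.50), Col6a2 (-0.37) and Col16a1 (-0.28). It was higher in KO cells for Col5a1 (0.29), Col18a1 (0.33) and Col1a1 (0.41). These are the values behind the comparison of responses in the report, and no explanation for them was tested.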

How the results depend on the processing

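No direction that passed the test was reversed under any alternative (sign changes of values that did not pass are not counted). With single libraries left out, called chains numbered 18 to 21 in WT (19 with all libraries), 16 to 18 in KO (17) and 6 to 6 for the interaction (6). They numbered 5 to 7 between senescent genotypes (6) and 3 to 5 between control genotypes (3). The 5, without WT control replicate 3, were 4 higher and 1 lower. These counts take in every chain tested in a refit, which can include chains too low to be tested with all libraries. Chain pair ratios that passed numbered 3 to 6 for irradiation (4) and 2 to 4 for genotype (2), with 4 without KO control replicate 2. With no fold threshold 16 interactions, 14 control differences and 18 senescent differences between genotypes counted, by construction of the threshold. At a minimum log2 difference of 0.5, which is another test, 3 interactions passed, and those of Col27a1, Col8a2 and Col23a1 did not. Shares without Col1a1, Col1a2 and Col3a1 were 1.96, 1.17, 2.30 and 1.17% in control and senescent WT cells and control and senescent KO cells. Over single chains and pairs, 43 values lost and 27 gained significance in 2112 refits without a library, and 45 and 18 in 1326 other alternatives. The control difference of Col12a1 also missed the threshold without a low-count filter (adjusted p = 0.0583), and the interaction of Col16a1 with DESeq2 size factors (adjusted p = 0.0569); the cause was not tested. Replicate numbers did not pair the libraries (correlations of same-numbered deviations -0.125 to 0.127, and 4 of 12 libraries correlated best with their own number). With replicate number as a block the calls numbered 19, 17, 6, 3 and 6 in WT, KO, the interaction, control and senescent genotype comparisons, as without the block, and Col12a1 in controls was at an adjusted p of 0.0606. Depth limits chains under about 1 CPM, where 3 counts equal 0.0945 to 0.125 CPM.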
